A study of Strongylocentrotus purpuratus with 6 samples.

Results

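The zinc finger genes Sip1 and Z13 of the sea urchin Strongylocentrotus purpuratus were examined through the RNA polymerase II (Pol II) ChIP-seq peaks over their tested cis-regulatory modules (CRMs). CRMs are here genomic regions whose enhancer activity had been measured earlier with reporter constructs and which the study set against its genomic profiles. Members were taken by name and position: every CRM of the study's table whose name begins with Sip1 or Z13, and every Pol II peak that overlaps by at least 1 bp the span of those CRMs widened by 2 kb on each side. This gave 17 Sip1 CRMs and 4 Z13 CRMs, 21 of the 389 in the table, and 59 peaks at Sip1 and 5 at Z13, 64 of the 554846 in the list. The rule itself uses names and positions and no Pol II value, although the 2 genes were picked for description with earlier results of these data known.

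Whole embryos at the hatching blastula stage, 20 h of development, were used for all 6 samples, 3 Pol II ChIP samples and 3 inputs, each ChIP matched to the input of the same chromatin extract. The ChIP antibody was 8WG16, which recognises the C-terminal repeat of the large Pol II subunit, and the labels name no treatment or mutation. The authors pooled the replicates before calling peaks, so the data are 1 list of scaffold, start and end in version 3.1 of the genome, with no height, score or read count. No value per sample, spread between replicates or depth behind a peak can be taken from such a list, and no test was made. What follows is a description of where peaks lie and how long they are. In whole embryos, a peak cannot tell Pol II in many cells from Pol II in few.

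Sip1 carries the name of the vertebrate Smad interacting protein, a member of the ZEB family of transcription factors, in which clusters of zinc fingers flank a homeodomain-like segment. In vertebrates these proteins mostly repress transcription, and they take part in neural development and in the response to TGF-beta signals. In the sea urchin Hemicentrotus pulcherrimus, the related gene is needed for the differentiation of serotonergic neurons. Z13 is a sea urchin zinc finger gene whose role is not described here. Zinc fingers are small protein folds held by a zinc ion, and in many transcription factors a row of them reads the DNA sequence. Pol II is the enzyme that transcribes such genes. It is found at promoters, where it initiates and pauses, along the bodies of transcribed genes, and at many enhancers. The letters U, I and D in CRM names were read as upstream, intronic and downstream. In both genes these classes follow one another along the scaffold without mixing.

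Pol II peaks covered 82.2% of the span of the intronic CRMs of Sip1 and 38.0% of the span of its upstream CRMs. The Sip1 window lies on Scaffold5 from 879299 to 950936 and is 71638 bp long, with the upstream CRMs at the higher coordinates. Peaks covered 42172 of its bases, or 58.9%. The scaffold outside the window, up to its last peak, was covered over 24.5%. The 50 kb beyond the downstream side was covered over 17.3%, and the 50 kb beyond the upstream side over 20.9%. Over all scaffolds up to their last peaks, the list covered 20.7%. The window as a whole was therefore more covered than its 2 flanks, but the high coverage lay in its inner part, as the bins below show.

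Along the direction from upstream to downstream, coverage rose in a step. In bins of 5 kb, the first 4 bins, which make up 20 kb, were covered over 25.6 to 30.0%. The next 8 bins were covered over 66.4 to 97.4%, with the highest value between 55 and 60 kb. Coverage then dropped to 54.4% between 60 and 65 kb and to 24.5% between 65 and 70 kb, with 33.6% in the last 1638 bp. The step up fell beside Sip1_Ur_01, the upstream CRM nearest the introns, and the step down came at Sip1_Dr_01, the downstream CRM nearest them.

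**Figure D1:**
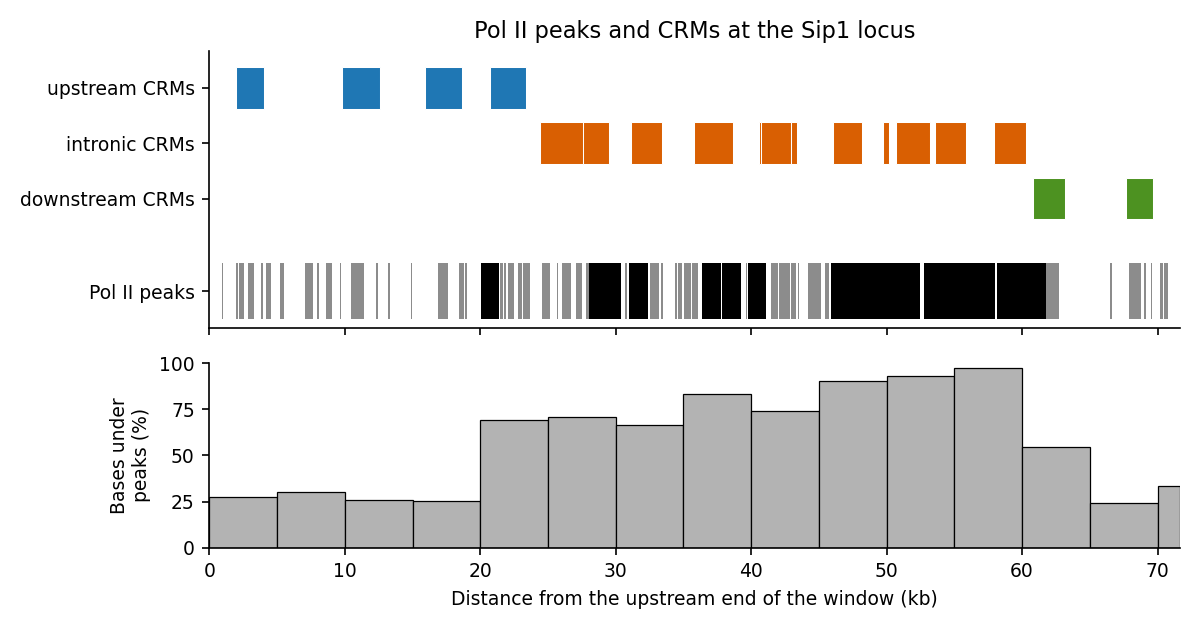
Pol II peaks and CRMs of Sip1 by distance in kb from the upstream end of the window (top; peaks of at least 1000 bp in black, shorter peaks in grey), and the share of bases under peaks in bins of 5 kb (bottom, in %). The first 4 bins stay between 25.6 and 30.0%, and the next 8 lie between 66.4 and 97.4%.

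The peaks themselves changed along the gene. In the first 20 kb there were 18 peaks, with a median length of 227.5 bp and none of at least 1000 bp, the longest being 952 bp. The intron span, from 890613 to 926552, was reached by 28 peaks with a median of 494.5 bp, and 8 of them measured at least 1000 bp. The ninth peak of that length lies at 929538 to 930880, next to the introns on the upstream side. Of the 59 Sip1 peaks, 9 were at least 1000 bp long (15.3%), against 4.71% of all peaks in the list. The other 35 genes of the table had a median of 12.9% of peaks at that length, from 0 to 66.7%. The share at Sip1 was thus near the middle of theirs. The median length over the 59 was 323 bp and over the list 217 bp. For the other 35 genes the median peak length of a gene was mostly close to this, with a middle value of 319 bp (194.5 to 1247 bp). Sip1 ranked 19 of 37 by it.

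The 5 longest Sip1 peaks held 45.4% of the covered bases of the window. The longest ran from 898497 to 905032, a length of 6536 bp, and 434 peaks of the list were as long or longer. The second, at 892947 to 898149, measured 5203 bp. The third, at 889205 to 892818, measured 3614 bp. The fourth lies apart, at 920540 to 922896, and measured 2357 bp, and the fifth, at 913135 to 914589, measured 1455 bp. On Scaffold5, with 1981 peaks, only 1 other peak reached the length of the longest Sip1 peak, and it spanned 10532 bp.

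The 3 longest adjoined. Together with a peak of 989 bp at 888215 to 889203, they formed a run of 16818 bp from 888215 to 905032 in which 97.2% of bases lay under a peak. The run was defined as neighbouring peaks of at least 900 bp separated by at most 500 bp. This is a lower cut than the 1000 bp used above for long peaks, and the peak of 989 bp enters only by it. The gaps within the run were 1, 128 and 347 bp. These 4 peaks held 38.8% of all covered bases of the window, and the rest of the window was covered over 47.1%. The run takes in 5 intronic CRMs whole, Sip1_Ir_09, Sip1_Ir_08, Sip1_Ir_07-32, Sip1_Ir_07-2 and Sip1_Ir_06-2, those on the downstream side of the introns. The remaining 55 peaks had a median of 308 bp.

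**Figure D2:**
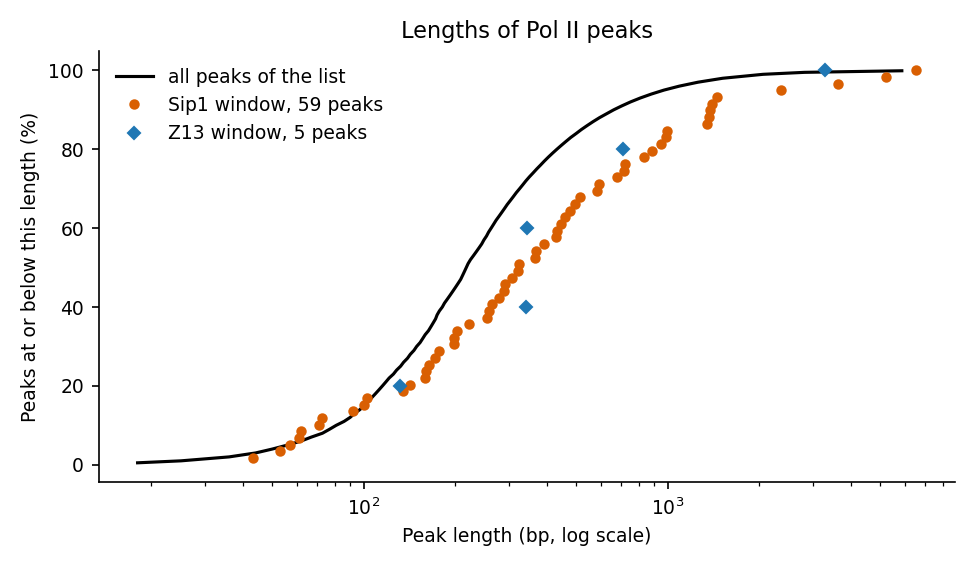
Cumulative share of peaks (%) against peak length in bp on a log scale, for all peaks of the list (line, drawn from its percentiles), the 59 Sip1 peaks and the 5 Z13 peaks (points). Sip1 points lie to the right of the line over most of the range, with a median of 323 bp against 217 bp, and its longest peak measures 6536 bp. The other 35 genes of the CRM table, not drawn, had a middle value of 319 bp for the median peak length of a gene.

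Peaks touched all 17 Sip1 CRMs. This share says little, since 98.5% of the 389 CRMs overlap a peak. Coverage separated them more. The lowest value was 34.9%, the median 80.4% and the highest 100%. Of the 17, 9 were covered over at least 80% of their length, against 42.2% of all CRMs. The 2 sets differ in their mix of classes, so this comparison is not like with like. Intronic CRMs make up 11 of the 17 but 166 of the 389, and 66.3% of those 166 were covered over at least 80%. By class, peaks covered 84.0% of intronic CRM bases (11 CRMs), 70.0% of downstream ones (2 CRMs) and 50.3% of upstream ones (4 CRMs), with bases shared by overlapping CRMs counted in each. In the other 35 genes the same shares were 78.6% for 154 intronic, 53.8% for 86 downstream and 57.3% for 128 upstream CRMs. The intronic order turned around for single CRMs, with a median of 88.4% at Sip1 and 91.0% in the other genes. Among the 28 genes with CRMs of all classes, Sip1 ranked 18 by its intronic share, 9 by its downstream share and 18 by its upstream share. CRMs of a gene share peaks and are not replicates, and the differences between classes or genes were not tested.

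Among the intronic CRMs, Sip1_Ir_08, Sip1_Ir_07-2 and Sip1_Ir_06-2 each lay wholly within 1 peak. They measure 2291, 509 and 2087 bp. The first sits inside the peak of 5203 bp, and the other pair share the peak of 6536 bp. These 3 of 17 compare with 20.1% of all CRMs within 1 peak, a figure that pools the classes, whereas these 3 are all intronic. A short CRM such as Sip1_Ir_07-2 is more easily enclosed.

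The CRM between them had a break. Sip1_Ir_07-32, at 897735 to 900259, had 2178 of its 2525 bases under peaks (86.3%). Its 347 uncovered bases are the gap between the 2 longest peaks, which enter it from either side, and it has no peak of its own. At the edge of the run, Sip1_Ir_09 (890613 to 892986) was covered over 94.6%, with the gap of 128 bp as its only uncovered stretch.

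Nearer the upstream side, the intronic CRMs were covered by more and shorter peaks. Sip1_Ir_05 (907582 to 910386) had 80.4% of its length under 4 peaks. Sip1_Ir_05-2, which lies wholly within it, had 77.2% under the same 4 peaks, so the 2 are not separate observations. Sip1_Ir_04 (912266 to 915126) was covered over 88.4% by 3 peaks and Sip1_Ir_03 (917497 to 919786) had 2060 of its 2290 bases under 3. Both values fall in the range of the CRMs in the run, although no peak here exceeded 1455 bp.

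The intronic CRMs nearest the upstream side had less. Sip1_Ir_02 (921471 to 924262) was covered over 75.2% by 4 peaks, 1 of which is the peak of 2357 bp. Sip1_Ir_01 (923383 to 926552) was covered over 57.0% by 5 peaks, all of them wholly inside it and none longer than 682 bp. It is the least covered of the 11 intronic CRMs, and it shares 880 bp with Sip1_Ir_02. In all, 8 of the 11 were covered over at least 80%, where the figure for all 166 intronic CRMs of the table is 66.3%.

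Coverage of intronic CRMs thus increased from the upstream to the downstream side of Sip1, with a Spearman rho of 0.70 over the 11 CRMs (0.60 to 0.80 when each CRM was left out in turn). The points come from 1 pooled library set, and some share bases or peaks. In the 10 genes of the table with at least 6 intronic CRMs, rho lay above 0 in 2, and Sip1 had the highest value. This count is not firm, since 4 of the other 8 genes (Chordin, Dri, FoxN23 and Unc41) came above 0 when 1 of their CRMs was left out. Tbx23, at -0.58, is not firm either. Its value rests on Tbx23_Ir_08 (95.9%) alone, since its other intronic CRMs were all covered over 100%. Dach, the other gene above 0, had 0.26, and Prox, at the opposite end, had -0.86. Over all 17 Sip1 CRMs rho was 0.59 in the same direction, and coverage was lower where more peaks touched a CRM (rho -0.53). The latter is partly built in, since peaks do not overlap and a wholly covered CRM is touched by only 1. Whether Sip1 differs from these genes was not tested.

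Of the upstream CRMs, Sip1_Ur_01 (927561 to 930239) stood above the others with 78.6% of its length under 6 peaks, the most of any Sip1 CRM. The peak of 1343 bp at 929538 to 930880 enters it from the upstream side. Sip1_Ur_02 (932270 to 934986) was covered over 34.9%, Sip1_Ur_03 (938358 to 941167) over 38.6% and Sip1_Ur_04 (946933 to 948936) over 49.7%. These 3 are the only Sip1 CRMs under 50%, and the longest uncovered stretch inside each was 915, 906 and 539 bp. The 3 lie apart from the introns, and the farthest of them is not the least covered.

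Of the downstream CRMs, the one nearer the introns was the better covered. Sip1_Dr_01 (887763 to 890154) was covered over 81.1%, and the start of the long run at 888215 lies inside it. Sip1_Dr_02 (881299 to 883278) was covered over 56.7% by 3 separate peaks, the longest of 889 bp. The longest uncovered stretch of the window, 3798 bp, lies mostly between them and ends inside Sip1_Dr_01.

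CRMs were better covered than the other bases of the window, which take in the flanks of 2 kb and the sequence between CRMs. The study states that its CRMs were picked mainly for conserved sequence, so they are not a random sample of each locus. Over the Sip1 window, 74.3% of CRM bases and 42.0% of other bases were under peaks, and CRM bases had the higher share in 33 of the 37 genes. Position in the gene bears on this, so the shares were also taken within each class, although position still varies within a class. Within the intron span, 85.9% of CRM bases and 75.6% of the bases between CRMs were covered. Within the upstream span the shares were 50.3% and 26.8%, and within the downstream span 70.0% and 2.27%. Of the 5136 covered bases of upstream CRMs, 2106 lie in Sip1_Ur_01, beside the introns. Of the 3061 covered bases of downstream CRMs, 1939 lie in Sip1_Dr_01, where the long run starts. The contrast between CRMs and their surroundings was thus narrowest in the introns. Of the 59 peaks, 21 touched no CRM and 9 touched 2 or more, where CRMs took up 37406 of the 71638 bases of the window. Most of these 9 lay where CRMs overlap each other, in Sip1_Ir_05 and Sip1_Ir_05-2 or in Sip1_Ir_02 and Sip1_Ir_01.

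**Figure D3:**
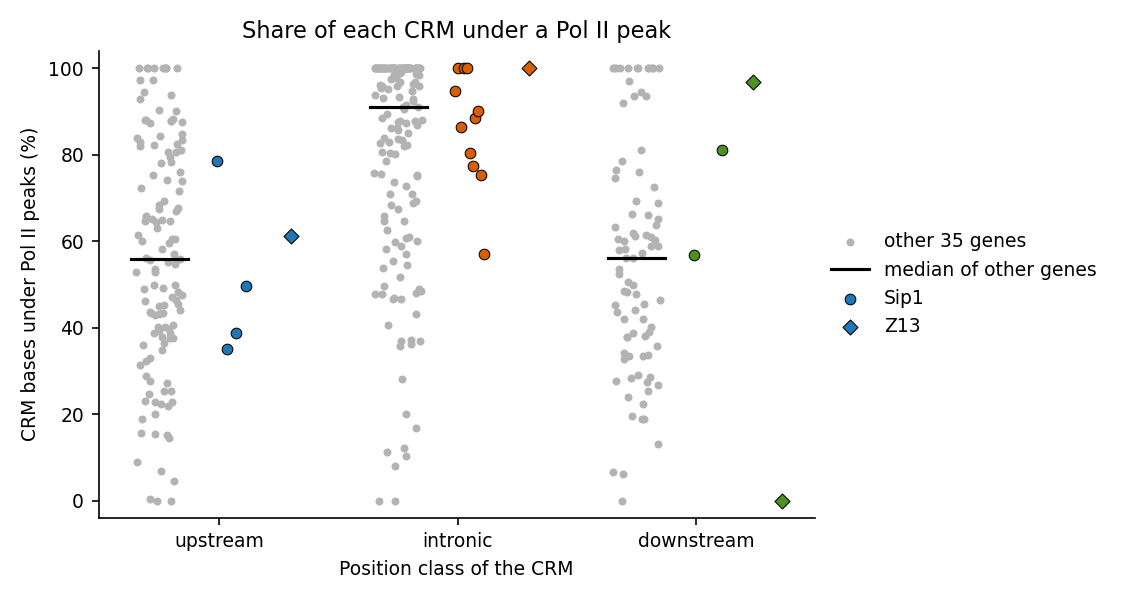
Share of each CRM under Pol II peaks (%) by position class, for Sip1 (circles), Z13 (diamonds) and the other 35 genes (grey points, with the median as a line). Sip1 intronic CRMs lie between 57.0 and 100%, 3 of its 4 upstream CRMs lie under 50%, and 1 Z13 downstream CRM is at 0%.

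At Z13, 1 peak covered nearly all of the gene's clustered CRMs, and the CRM set apart had no peak. The window begins at base 1 of Scaffold2368, where the first CRM starts, so the added flank on that side does not exist and sequence farther upstream could not be examined. It ends at 12900. Peaks covered 4805 bases, or 37.2%, and the rest of the scaffold up to its last peak was covered over 8.87%. The 50 kb after the window was covered over 7.05%. By bins of 5 kb, coverage was 68.9%, then 24.6%, then 4.52% in the last 2.9 kb. Most of the covered bases thus lay near the scaffold start.

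The 5 Z13 peaks were unequal. The first, at 308 to 3585, measured 3278 bp and held 68.2% of the covered bases. It was the longest peak of the scaffold, and 1953 peaks of the list were as long or longer. The others lay at 4834 to 5173 (340 bp), 6463 to 7173 (711 bp), 8306 to 8650 (345 bp) and 12445 to 12575 (131 bp). None of these 4 touched a CRM. They were separated by gaps of 1132 to 3794 bp, whereas the median gap at Sip1 was 272.5 bp and 15 of its 58 gaps were 100 bp or less.

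**Figure D4:**
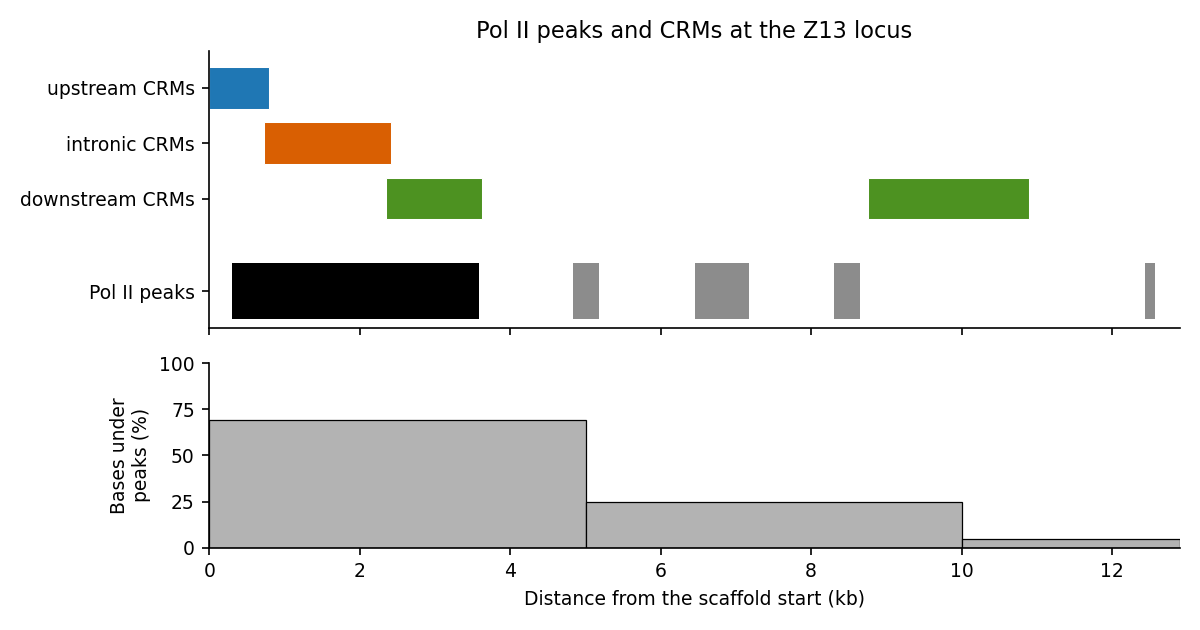
Pol II peaks and CRMs of Z13 by distance in kb from the scaffold start (top; the peak of at least 1000 bp in black, shorter peaks in grey), and the share of bases under peaks in bins of 5 kb (bottom, in %). The peak of 3278 bp spans 3 CRMs, and the CRM near 10 kb lies between peaks.

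The peak of 3278 bp was shared by 3 CRMs. Z13_Uf_01 (1 to 790) had 483 of its 790 bases under it (61.1%), and the uncovered 307 bases are those at the scaffold start. In the whole list, 85 peaks begin at the first base of a scaffold. Z13_If_01 (723 to 2410), the only intronic CRM of the gene, lay wholly within the peak, over its 1688 bp. Z13_Df_01 (2344 to 3626) was covered over 96.8%, with the last 41 bases outside. Neighbouring CRMs share 68 and 67 bp, and all 3 values come from 1 peak, so they count as 1 observation of Pol II.

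Z13_Df_02 (8758 to 10900) overlapped no peak over its 2143 bp. The nearest peak ended 107 bp before it and the next began 1544 bp after it. Only 6 of the 389 CRMs, in 5 genes, had no peak, and Z13_Df_02 is 1 of them. A list without scores cannot show whether Pol II reads below the calling threshold were present there. Taken over the 4 CRMs, 57.8% of bases were covered, and the single values of 61.1, 100, 96.8 and 0% show how little that mean describes any of them.

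The 2 genes differed in how densely peaks were arranged. Sip1 had 8.24 peaks per 10 kb and Z13 had 3.88, where the other 35 genes had a median of 8.14 (2.38 to 12.7). By the share of the window under peaks, Sip1 ranked 17 of 37 and Z13 ranked 31. The other 35 genes had a median of 58.8% (13.9 to 85.5%). In that order Sip1 stood after Shr2 (61.8%) and just above Nfe2 and SoxB1 (both 58.8%), and Z13 stood below Fic (39.5%) and just above Nk1, where 33738 of 91129 bases were covered. With no replicate spread, such neighbours cannot be told apart. By the share of CRM bases alone, Sip1 ranked 10 and Z13 ranked 23. By the longest peak, Sip1 ranked 16 and Z13 ranked 25, with a median of 5330 bp (326 to 23168 bp) in the other genes. Sip1 was therefore a middling locus among these regulatory genes by coverage and by its longest peak, and Z13 was in the lower part of the range by both. The Z13 window is also short, and it is cut by the scaffold start.

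**Figure D5:**
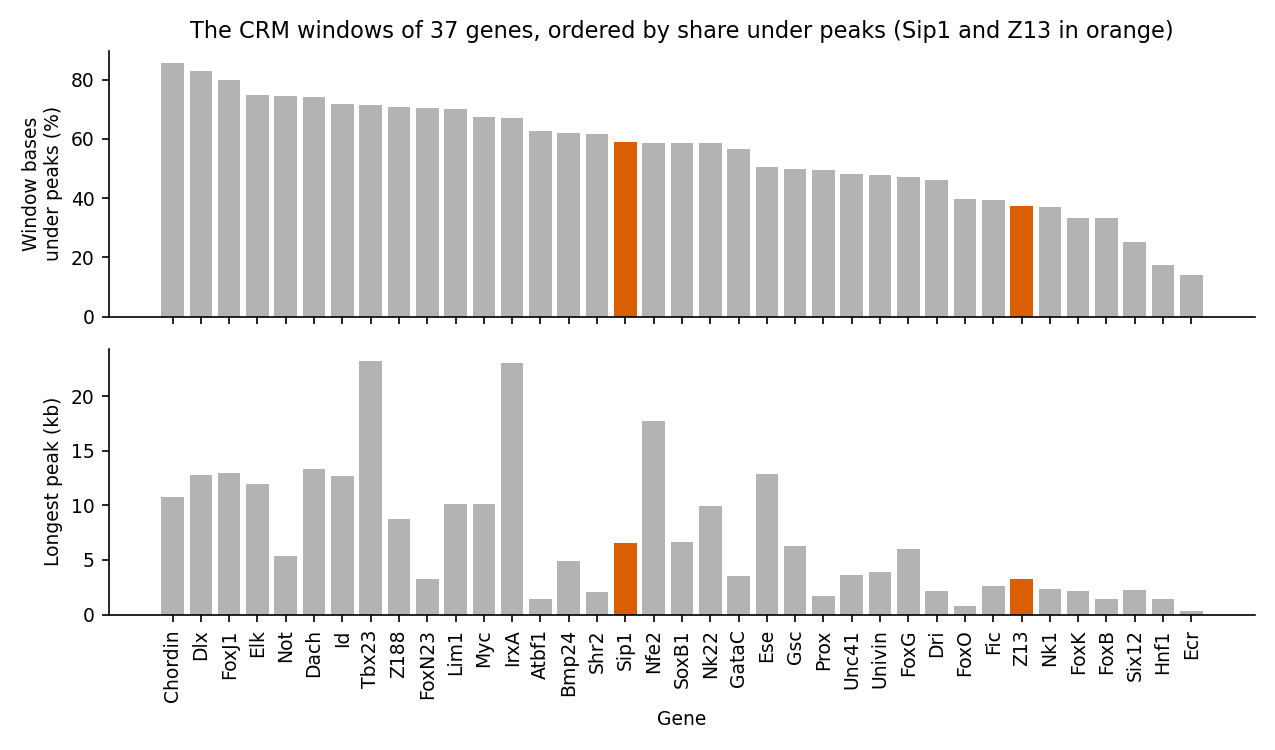
Share of the CRM window under Pol II peaks (top, in %) and length of the longest peak (bottom, in kb) for the 37 genes, ordered by the share, with Sip1 and Z13 in orange. Sip1, at 58.9%, is in the middle of the order, and Z13, at 37.2%, is in its lower part.

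Coverage by class gave each gene a profile, available in 28 genes that have CRMs of all classes. Closest to Sip1 (50.3% upstream, 84.0% intronic, 70.0% downstream) was Elk, at a Euclidean distance of 14.9 percentage points, with 45.7, 96.7 and 63.6%. Ese followed at 17.2 points and Nfe2 at 23.9. Closest to Z13 (61.1, 100 and 36.3%) was IrxA, at 13.8 points, with 68.2, 100 and 48.1%. Tbx23 followed at 20.8 points and Univin at 24.8. The Z13 profile rests on 1 upstream, 1 intronic and 2 downstream CRMs, the last at 96.8 and 0%. All its coverage comes from 1 peak, so its nearness to these genes carries little weight. In both profiles the intronic share is the highest of the classes, which holds for 20 of the 28 genes.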

How the data were processed

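The deposited file is the authors' list of Pol II peaks from 20 h embryos, with positions in bp as its only measure. The submitters' processing notes name CASAVA 1.8, Bowtie 1.0.1 and MACS 1.4.2, whereas the study's methods name a later major version of Bowtie for the combined reads. Peaks were called against combined input at default settings. The library depth was not analysed here, so precision per peak is unknown.

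From the study's supplementary table only CRM names and positions were read, as counting from 1 with both ends included. Its reporter and signal columns were not used. Printed peak positions count from 1. Windows, covered bases, peak lengths, gaps, ranks and Spearman coefficients were computed with Python 3.11.15, numpy 2.4.6, pandas 2.3.3 and scipy 1.17.1, and plots with matplotlib 3.10.9. Covered bases were tested on simulated data against a base-by-base count.

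The 2 genes, the measures and the thresholds were chosen with earlier results of these data known, while the members within each gene follow from CRM names and positions alone. Every member CRM is accounted for; peaks named are the 5 longest at Sip1, those beside them or touching named CRMs, and all at Z13. The 3 nearest genes are those of smallest distance in class coverage. Alternatives concerned peak length, joining of peaks, the flank, the overlap, and CRM overlaps and ends. The annotation table at hand is of another assembly and matched neither gene name, so promoters, exons and sequences are not given.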

Additional observations from a re-analysis of the deposited data

How the results depend on the processing

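No paired analysis was possible because peaks were called once over the combined replicates; none could be left out either. A stricter score threshold was not run, since the list holds no score. Over 8 results and 60 alternatives, 58 gave a value within 1.5 times that reported. This count does not measure firmness, because some alternatives could not move a result. The intronic share of Sip1, at 84.0%, also has no room to rise 1.5 times. The 2 that moved concern the number of Sip1 peaks, which fell from 59 to 32 when peaks under 300 bp were left out and to 21 when peaks separated by 500 bp or less were joined, both by construction. The share of the Sip1 window under peaks ranged from 52.9 to 67.8%, and that of Z13 from 31.4 to 42.9% with the flank changed. Intronic CRMs of Sip1 (82.4 to 97.4%) stayed above its downstream CRMs (64.7 to 82.2%) and its upstream CRMs (39.3 to 60.5%) in each of the 7 alternatives run for them. Z13 CRMs ranged from 56.8 to 57.8%. The alternatives in peak length and joining could not change that share. Only the peak of 3278 bp touches these CRMs, and the smallest gap between Z13 peaks is 1132 bp. Without scores, depth or single replicates, these data describe the presence and length of peaks only.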
